A study of Caenorhabditis elegans with 12 samples.

Results

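Adult aging of *sams-1* animals was followed by comparing 3 RNA sequencing libraries titled *sams-1* at day 7 of adulthood (D7) with 3 titled *sams-1* at day 1 (D1), which are 6 of the 12 libraries of the series. The members were chosen by title alone, and the expected counts of all genes were used. The other 6 libraries are wild-type (N2) animals at D1 and D7, and replicates carry the numbers 1, 3 and 5 in each of the 4 groups. RNA of every library came from whole animals that were fed HT115 bacteria. The titles give only the gene and the age, and the study's text calls the animals a loss-of-function *sams-1* strain, whereas the treatment labels give RNAi for these 6 libraries on a wild-type background and control for the others, so the nature of the perturbation is uncertain here and the groups are named by title.

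SAMS-1 is an S-adenosylmethionine (SAM) synthase. SAM carries the methyl groups used to build phosphatidylcholine from phosphoethanolamine and to modify histones, nucleic acids and proteins, and the used carrier is recycled to methionine through the methionine cycle. An adult worm no longer molts, its hermaphrodite germ line uses up a fixed supply of sperm made before adulthood, and its intestine goes on making yolk proteins for oocytes. Cuticle collagens are secreted by the epidermis in pulses tied to the molts and the young adult stage.

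Total expected counts were 5564069 to 6715897 in the D1 libraries and 3939023 to 6020721 in the D7 libraries. The biological coefficient of variation was 0.451 among the D1 and 0.254 among the D7 *sams-1* libraries. On the first principal component of all 12 libraries, D1 replicate 1 stood at 90.8, apart from D1 replicates 3 and 5 at 177 and 183, while the D7 libraries lay between 28.3 and 51.1. *sams-1* mRNA, counted over the whole gene (chromosome X, 11965962 to 11969893, WBcel235; levels are in CPM, counts scaled to library size), where reads of undeleted exons would also be counted, went against the titles: it stood at 163, 102 and 181 CPM at D1 and 13.2, 20 and 17.6 CPM at D7 in wild type and at 228, 231 and 246 CPM at D1 and 35.7, 72.4 and 51.4 CPM at D7 in the libraries titled *sams-1*, although scaling on muscle genes put the D1 *sams-1* libraries (69.3 to 88.6 CPM) below the D1 wild-type ones (130.4 to 169 CPM). *fat-7*, a fatty acid desaturase gene, was above wild type in every library titled *sams-1* (92.3 to 400.4 against 7.09 to 19.4 CPM). Markers of muscle, pharynx, intestine, neurons, epidermis and germ line were present in these whole-animal libraries, and none of the 3 coelomocyte genes passed the filter on low counts.

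Of 14193 genes tested by edgeR's quasi-likelihood test, 393 were at least 2-fold higher and 845 at least 2-fold lower at D7 than at D1 in *sams-1* animals at an adjusted p under 0.01, which is 2.77% and 5.95% of the genes tested. With no threshold on the fold, as used below for gene lists, 467 genes (3.29%) rose and 900 (6.34%) fell. Of these, 98.5% had D1 and D7 libraries that did not overlap, so a lack of overlap below describes the values and sets no called gene apart. The split between higher and lower calls moved with the scaling, to 489 and 619 with RLE size factors and 624 and 496 with library totals. Over all genes the median log2 fold change was 0.02, so the changes below are read against a centre near 0. Scaling the libraries on the body wall muscle genes, which fell themselves, moves that median by 1.6 on the log2 scale and the calls to 8143 higher and 229 lower, and for lists or genes whose sign turns with it that value is given beside the result. The calls were spread over the chromosomes: the share called lower ran from 5.52% on chromosome III to 6.45% on IV, and the share called higher from 2.32% on III to 3.66% on V.

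The D1 libraries did not weigh equally in these calls. Of the 845 genes called lower, 561 had a D1 replicate 1 level within 2-fold of the mean of D1 replicates 3 and 5, and 146 had a D1 replicate 1 level at least 4-fold below it. Of the 393 called higher, the corresponding counts were 265 within 2-fold, 45 at least 4-fold above and 40 at least 4-fold below. Leaving out 1 library at a time, 274, 258, 284, 150 and 201 genes were called higher and 140, 158, 69, 136 and 66 lower without D1 replicate 3, D1 replicate 5, D7 replicate 1, D7 replicate 3 and D7 replicate 5, and 2359 and 1278 without D1 replicate 1. All 1238 calls kept their sign in each of these fits, which says little because they were chosen on the same libraries. Of these calls, 132 higher and 45 lower passed in all 6 fits. In bulk RNA from whole animals, fewer cells of a type and less RNA per cell cannot be told apart, and this holds for every result below.

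**Figure D1:**
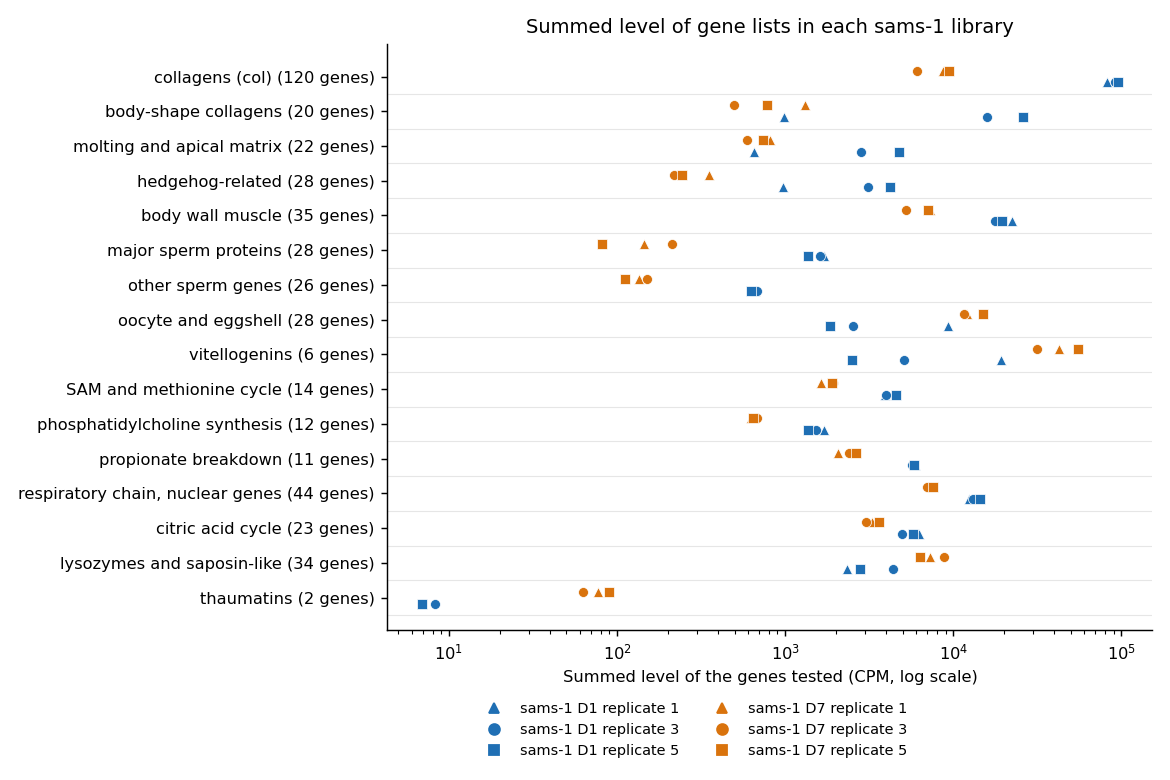
Summed level in CPM (log axis) of the tested members of 16 gene lists in each *sams-1* library, D1 in blue and D7 in orange, with a marker shape for each replicate. The *col* collagens summed to 81856 CPM or more in each D1 library and 9405 CPM or less in each D7 library, whereas D1 replicate 1 lies among the D7 libraries for body-shape collagens and for molting genes.

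Among the gene lists, the cuticle collagens held the most genes that fell. Of 156 listed *col* genes, 120 were tested, and 75 fell, 3 rose and 42 did not pass, with a median log2 fold change of -3.48 against 0.02 for all genes. Their summed level was 81856, 91869 and 95135 CPM in D1 replicates 1, 3 and 5 and 8677, 6079 and 9405 CPM in D7 replicates 1, 3 and 5. The groups did not overlap, and the mean at D1 was 11.1-fold that at D7. *col-19* (chromosome X, 421707 to 422691), a collagen of the adult cuticle, stood at 2879, 1236 and 863 CPM at D1 and 61, 110.0 and 120.2 CPM at D7 (log2 change -4.10 with SE 0.46 and adjusted p = 0.000459). Its highest D1 library was replicate 1, and no D7 library came near the D1 range. *col-119* (6935, 1659 and 1051 CPM at D1 and 209.6, 376 and 497 CPM at D7; log2 change -3.16 and adjusted p = 0.00719) and *col-140* (4979, 2131 and 1613 CPM at D1 and 177, 243 and 364 CPM at D7; log2 change -3.48 and adjusted p = 0.00124) had the same order among the D1 libraries. Collagens also had the largest falls among called genes with a mean of at least 10 CPM and no overlap between ages. That ranking took only genes with a symbol of letters, a hyphen and a number. The ones given next had the other order among the D1 libraries. *col-49* (chromosome I, 3137185 to 3138447) stood at 70.4, 1101 and 1622 CPM at D1 and 6.65, 13.6 and 3.52 CPM at D7 (log2 change -6.90 with SE 1.18 and adjusted p = 0.00295), so D1 replicate 1 stood between the D7 libraries and D1 replicates 3 and 5. *col-63* (74.8, 822 and 1462 CPM at D1 and 10.1, 10.2 and 2.6 CPM at D7; log2 change -6.71 and adjusted p = 0.00277) and *col-138* (118, 1804 and 3028 CPM at D1 and 16.7, 30.9 and 5.81 CPM at D7; log2 change -6.55 and adjusted p = 0.00421) followed that order. *col-60* (-6.56) and *col-120* (-6.69) had log2 fold changes of like size and fell too. Cuticle collagens are similar in sequence, so reads of close copies may be shared out between them.

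The collagens that rose were few and low at D1. *col-74* (chromosome II, 5830374 to 5832022) stood at 0.424, 0.554 and 0 CPM at D1 and 16.7, 9.72 and 41.1 CPM at D7 (log2 change 6.03 with SE 1.09 and adjusted p = 0.00387). *col-165* had 2 estimated reads in all D1 libraries and 331 in all D7 libraries, a ratio of 185 with an exact 95% interval for counting error of 50.9 to 1535. In wild type *col-74* gave -1.82 (adjusted p = 0.258) with age, and the difference between genotypes did not pass (adjusted p = 0.0368). The count of *col* genes that fell was 94 without D1 replicate 1, 29 without D1 replicate 3, 37 without D1 replicate 5, 9 without D7 replicate 1, 11 without D7 replicate 3 and 10 without D7 replicate 5. Without both D1 replicates 3 and 5, an alternative chosen after seeing the data in which the lone D1 library is assumed to vary like the other groups, it was 24, with a median of -1.90. *col-19* held its call with each *sams-1* library left out in turn. *col-119*, *col-140*, *col-49*, *col-63*, *col-138*, *col-60*, *col-120* and *col-74* lost the call without at least 1 library, with an adjusted p of at most 0.04 (*col-119*, without D7 replicate 1).

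The other cuticle and molting genes that fell were high mainly in D1 replicates 3 and 5. Of 20 body-shape collagens (*dpy*, *rol*, *sqt*, *bli* and *lon* genes), 6 fell and 2 rose, with a median of -4.02, and 7 of them are also on the hypodermis list, of whose 15 genes 4 fell and none rose. The summed level of the body-shape collagens was 981, 15800.4 and 26099 CPM in D1 replicates 1, 3 and 5 and 1309.5, 495 and 778 CPM in D7 replicates 1, 3 and 5. The groups overlapped, because D1 replicate 1 lay between the D7 libraries. *bli-6* stood at 194, 1696 and 2859.5 CPM at D1 and 18.4, 24.8 and 9.33 CPM at D7 (log2 change -6.50 with SE 1.08 and adjusted p = 0.00262), and *rol-1*, mutations of which make animals roll, at 78.7, 971 and 1898 CPM at D1 and 7.79, 14.9 and 7.03 CPM at D7 (log2 change -6.64 and adjusted p = 0.0022). *bli-1* and *bli-2*, collagens of the struts of the adult cuticle, had log2 fold changes of -5.73 and -5.88. *dpy-13*, whose loss makes short, fat animals, passed with overlapping groups (153, 2906 and 4170.0 CPM at D1 and 162, 72.2 and 86.1 CPM at D7; log2 change -4.50 and adjusted p = 0.00901).

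Of 22 genes for molting and the apical matrix, 4 fell and none rose (median -2.41), and of 28 tested hedgehog-related genes, a family large in nematodes and secreted mainly by epidermis, 12 fell and none rose (median -3.28). Their summed levels were 652, 2833 and 4749 CPM at D1 and 816, 597 and 742 CPM at D7 for molting genes and 972, 3113 and 4204 CPM at D1 and 352, 218 and 242 CPM at D7 for hedgehog-related genes, in the order of replicates 1, 3 and 5. Only the hedgehog-related sums did not overlap between ages. *qua-1*, a hedgehog-related gene needed for molting that stands on both lists, gave 27.3, 847 and 971 CPM at D1 and 49.4, 37.8 and 37 CPM at D7 (log2 change -3.89 and adjusted p = 0.00977), and *mlt-8*, another molting gene, 12.6, 237 and 348 CPM at D1 and 20.7, 11.2 and 11.6 CPM at D7 (log2 change -3.78 and adjusted p = 0.00755). *grl-16* (85, 829 and 1127 CPM at D1 and 40.6, 30 and 33.3 CPM at D7; log2 change -4.29 and adjusted p = 0.00661) and *grl-5* (-4.94) fell too. Without both D1 replicates 3 and 5 none of the body-shape, hypodermis or molting genes and 2 hedgehog-related genes fell at the same threshold, and the medians were 0.51, 0.41, 0.80 and 0.13, so these lists turned sign. With D1 replicate 1 left out instead, 18 body-shape collagens, 9 hypodermis, 18 molting and 23 hedgehog-related genes fell; without D1 replicate 3 or D1 replicate 5 the counts were 1, 0, 0 and 3, and without any D7 library at most 0, 0, 0 and 2. In the fit without D1 replicate 1, 1 molting gene rose. What sets D1 replicate 1 apart was not tested.

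*dpy-14* and *hch-1* rose against this trend. *dpy-14* (chromosome I, 6843589 to 6845142), a collagen gene used in the embryo, stood at 2.12, 0.185 and 0.169 CPM at D1 and 87.4, 37.6 and 109.8 CPM at D7 (log2 change 6.42 with SE 0.89 and adjusted p = 0.00117). *hch-1* (chromosome X, 14696411 to 14699977), which encodes a secreted protease with which embryos hatch, stood at 0.707, 0 and 0 CPM at D1 and 30.6, 16.6 and 24 CPM at D7 (log2 change 6.38 with SE 0.87 and adjusted p = 0.00104). Both were at most 2.12 CPM in each D1 library and at least 16.6 CPM in each D7 library. In wild type they also rose, by 3.19 (adjusted p = 0.00954) and 4.81 (adjusted p = 0.00123). None of the 4 tested genes on the early embryo list passed. *dpy-14* and *hch-1* held their calls with each *sams-1* library left out in turn. *bli-6*, *rol-1*, *bli-1*, *bli-2*, *dpy-13*, *qua-1*, *mlt-8*, *grl-16* and *grl-5* lost the call without at least 1 library, with an adjusted p of at most 0.0535 (*qua-1*, without D7 replicate 5).

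Body wall muscle transcripts were lower in every D7 library than in any D1 library. Of 35 genes for the contractile apparatus and its attachments, 19 fell and none rose, with a median of -1.52 that became 0.03 when the libraries were scaled on these genes. Their summed level was 22253, 17627 and 19439 CPM in D1 replicates 1, 3 and 5 and 7315, 5248 and 7067 CPM in D7 replicates 1, 3 and 5, without overlap, and the D7 mean was 0.331 times that at D1. *tnt-2*, which encodes troponin T, stood at 1191, 487 and 694 CPM at D1 and 151, 103 and 139 CPM at D7 (log2 change -2.59 with SE 0.45 and adjusted p = 0.00316). *unc-52*, which encodes the basement membrane proteoglycan perlecan that anchors muscle, stood at 466, 454 and 694 CPM at D1 and 115, 74.3 and 95.7 CPM at D7 (log2 change -2.50 with SE 0.31 and adjusted p = 0.000678). *mlc-1*, for a myosin light chain, gave 778, 359 and 541 CPM at D1 and 123, 60.3 and 121 CPM at D7 (log2 change -2.46 and adjusted p = 0.00419), and *act-1*, for actin, 2242, 909 and 1552 CPM at D1 and 428, 229.7 and 479 CPM at D7 (log2 change -2.05 and adjusted p = 0.00707). The ages did not overlap for these 4 genes, as for 98.5% of genes past the test. Scaled on the muscle list, *unc-52* stayed past the test (-0.93), and *tnt-2*, *mlc-1* and *act-1* did not (-0.96, -0.87 and -0.45). That scaling sets the list's own sum equal in all libraries, so these values only compare each gene with its list. The count that fell was 12 without D1 replicate 1, 10 without D1 replicate 3, 6 without D1 replicate 5, 2 without D7 replicate 1, 3 without D7 replicate 3 and 2 without D7 replicate 5. Of 12 tested pharynx genes, 1 fell and none rose (median -0.68, 0.86 with muscle scaling). Of 14 tested tubulin genes 1 fell (median -0.26, 1.35 with muscle scaling). These are 8.33% and 7.14% against 6.34% of all genes. The tubulin gene was *tba-4*, with 191, 307 and 323 CPM at D1 and 58.9, 58.3 and 76.3 CPM at D7 (log2 change -2.08 and adjusted p = 0.00042). *unc-52* and *tba-4* held their calls with each *sams-1* library left out in turn. *tnt-2*, *mlc-1* and *act-1* lost the call without at least 1 library, with an adjusted p of at most 0.0339 (*act-1*, without D7 replicate 1). *act-1* lost it whichever *sams-1* library was left out.

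Sperm transcripts were lower in every D7 library, and the D1 libraries were even. The 28 tested genes of the major sperm protein family, the cytoskeletal protein of nematode sperm, summed to 1715, 1605 and 1377 CPM in D1 replicates 1, 3 and 5 and 145, 212 and 81.2 CPM in D7 replicates 1, 3 and 5, and the D1 mean was 10.7-fold the D7 mean. All 28 had negative log2 fold changes with a median of -3.40, but only *msp-51* passed (102, 115 and 85.3 CPM at D1 and 4.37, 8.64 and 5.66 CPM at D7; log2 change -4.02 and adjusted p = 0.00877). With DESeq2 23 of these 28 genes passed as lower, with the 6 *sams-1* libraries alone 25 and with limma on TPM 5. With RLE or upper-quartile factors, library totals or muscle scaling none did. The major sperm protein genes are nearly identical, so the split of reads between them is uncertain and the sum is the safer value. Of 26 other sperm genes tested, 11 fell and none rose (median -3.46), and their sums were 628 to 676 CPM in the D1 libraries and at most 149.9 CPM in the D7 libraries. *gsp-3*, a phosphatase of sperm, stood at 74.2, 85.7 and 104 CPM at D1 and 4.94, 5.19 and 2.14 CPM at D7 (log2 change -4.44 with SE 0.90 and adjusted p = 0.0059). *fer-1*, a dysferlin relative for vesicle fusion in sperm, stood at 12.7, 22.5 and 27.9 CPM at D1 and 1.33, 1.3 and 1.22 CPM at D7 (log2 change -4.02 with SE 0.52 and adjusted p = 0.000891). *sss-1*, of a sperm-specific family, stood at 157, 133 and 98 CPM at D1 and 9.12, 6.91 and 4.28 CPM at D7 (log2 change -4.26 and adjusted p = 0.00571). *alg-3* and *alg-4*, argonautes of the male germ line, had log2 fold changes of -4.75 and -4.74 and were the 2 of 18 argonaute genes that fell (11.1% against 6.34% of all genes). The number of other sperm genes that fell was 1 (without D1 replicate 3, D1 replicate 5, D7 replicate 1, D7 replicate 3 and D7 replicate 5) to 11 (without D1 replicate 1). In the fit without D1 replicate 1, 1 such gene rose. *fer-1* held its call with each *sams-1* library left out in turn. *msp-51*, *gsp-3*, *sss-1*, *alg-3* and *alg-4* lost the call without at least 1 library, with an adjusted p of at most 0.0536 (*msp-51*, without D7 replicate 5).

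Oocyte and yolk genes were higher at D7, mainly against D1 replicates 3 and 5. All 28 oocyte and eggshell genes had positive log2 fold changes (median 1.40), and 4 rose. Their summed level was 9351, 2538 and 1846 CPM in D1 replicates 1, 3 and 5 and 12135, 11668 and 15025 CPM in D7 replicates 1, 3 and 5, and D1 replicate 1 was below the lowest D7 library by less than the gap to the other D1 libraries. *mex-5*, an RNA-binding polarity gene of the zygote, stood at 365, 138 and 112 CPM at D1 and 658, 609 and 658 CPM at D7 (log2 change 1.65 with SE 0.36 and adjusted p = 0.00794). *pie-1*, which keeps germ cells from somatic transcription, stood at 36.8, 16.3 and 16.9 CPM at D1 and 90.8, 77.6 and 101 CPM at D7 (log2 change 1.94 with SE 0.29 and adjusted p = 0.00165). *mom-2*, a Wnt ligand, rose by 1.67. The 6 vitellogenins, which encode yolk proteins, summed to 19195, 5119 and 2511 CPM in D1 replicates 1, 3 and 5 and 42678, 31429.8 and 55360.0 CPM in D7 replicates 1, 3 and 5. *vit-5* stood at 1240.2, 319 and 107 CPM at D1 and 7070.1, 4256 and 7546 CPM at D7 (log2 change 3.50 with SE 0.73 and adjusted p = 0.0067) and was the 1 of 6 that rose; *vit-2* stood at 8752, 2568 and 1394 CPM at D1 and 16134, 13017 and 21099.8 CPM at D7 and did not pass (log2 change 1.98 and adjusted p = 0.0228). No gene on the 39-gene germ line list passed (median 0.46, with 32 positive). Of 40 replication and mitosis genes 2 rose, 5% against 3.29% of all genes. *cye-1*, for cyclin E, was 1 of them, with 80.9, 65.2 and 60.3 CPM at D1 and 125, 147 and 134 CPM at D7 (log2 change 0.98 and adjusted p = 0.00329). Leaving out D1 replicate 1, 26 oocyte genes, 6 vitellogenins, 28 germ line genes and 36 replication genes rose, with medians of 2.73, 3.51, 1.11 and 1.26. Leaving out D1 replicate 3 or any D7 library, 1 oocyte gene and no vitellogenin rose; without D1 replicate 5 there was 1 of each. *pie-1* held its call with each *sams-1* library left out in turn. *mex-5*, *mom-2*, *vit-5* and *cye-1* lost the call without at least 1 library, with an adjusted p of at most 0.0275 (*mom-2*, without D7 replicate 3).

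**Figure D2:**
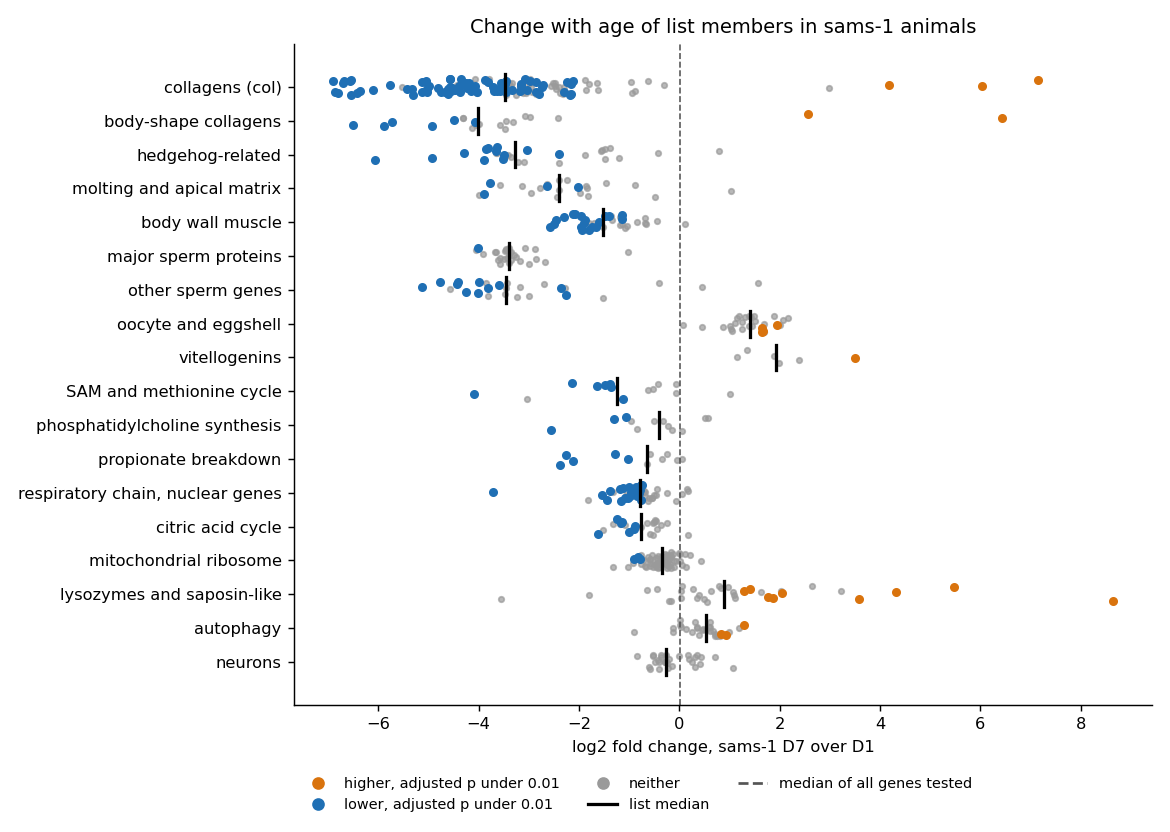
Log2 fold change between D7 and D1 in *sams-1* animals for each tested member of 18 gene lists, with members past the test in orange (higher) or blue (lower), others in grey, a black bar at the list median and a dashed line at the median of all genes, 0.02. Collagen and sperm lists have medians from -4.02 to -3.40, metabolic lists lie nearer to 0, and the lysozyme and saposin-like median is 0.90; scaling on muscle genes, which moves the median of all genes by 1.6, turns the sign of the muscle, methionine cycle, phosphatidylcholine, propionate, respiratory chain, citric acid cycle, mitochondrial ribosome and neuron medians.

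In the gene set around SAM itself, 7 of 14 genes of the SAM and methionine cycle fell with age in the *sams-1* libraries and none rose (median -1.24, 0.40 with muscle scaling), and the sum was 3940.4, 3980.4 and 4570.1 CPM in D1 replicates 1, 3 and 5 and 1629.9, 1929 and 1898 CPM in D7 replicates 1, 3 and 5, without overlap. *sams-1* itself fell to the D7 values above (log2 change -2.15 with SE 0.28 and adjusted p = 0.000913). *metr-1*, the methionine synthase, stood at 452, 457 and 537 CPM at D1 and 120.0, 179 and 165 CPM at D7 (log2 change -1.64 with SE 0.21 and adjusted p = 0.000768). *mthf-1*, which makes the methyl-folate that *metr-1* uses, stood at 309, 395 and 497 CPM at D1 and 139, 132 and 155 CPM at D7 (log2 change -1.49 with SE 0.20 and adjusted p = 0.00104). *ahcy-1*, which breaks down S-adenosylhomocysteine, stood at 1282, 1518 and 1763 CPM at D1 and 570.1, 554 and 641 CPM at D7 (log2 change -1.37 and adjusted p = 0.00201). The ages did not overlap for these 4 genes, as for 98.5% of genes past the test, and scaling on muscle genes gave -0.48, 0.00, 0.10 and 0.23. *mel-32*, a serine hydroxymethyltransferase, and *mtrr-1*, the reductase of methionine synthase, fell by 1.38 and 1.12 (0.26 and 0.55 with muscle scaling). Among the other SAM synthases, *sams-5* stood at 22.9, 36.8 and 50.5 CPM at D1 and 1.71, 2.16 and 2.45 CPM at D7 (log2 change -4.10 with SE 0.68 and adjusted p = 0.00254). *sams-3* (102, 94.4 and 106 CPM at D1 and 56.6, 83.8 and 68.5 CPM at D7; log2 change -0.53 and adjusted p = 0.0402) and *sams-4* (155, 181 and 272 CPM at D1 and 147, 160.3 and 146 CPM at D7; log2 change -0.42 and adjusted p = 0.133) did not pass. *sams-3* and *sams-4* turned to 1.12 and 1.19 with muscle scaling, and their near-identical sequences leave the split between them uncertain. The count that fell was 7 without D1 replicate 1, 5 without D1 replicate 3, 5 without D1 replicate 5, 3 without D7 replicate 1, 5 without D7 replicate 3 and 3 without D7 replicate 5. *metr-1* and *mthf-1* held their calls with each *sams-1* library left out in turn. *sams-1*, *ahcy-1*, *mel-32*, *mtrr-1* and *sams-5* lost the call without at least 1 library, with an adjusted p of at most 0.0369 (*mtrr-1*, without D7 replicate 5).

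In wild type the same 14 genes gave a median of -0.12 with age, and 1 fell, *sams-1*, with a log2 fold change of -3.13 (adjusted p = 7.9e-05). *metr-1* stood at 259.8, 205 and 169 CPM at D1 and 201, 218 and 212 CPM at D7 in wild-type replicates. On this scale the *sams-1* libraries were above wild type at D1 and below it at D7. Muscle scaling, which put *sams-1* mRNA of the D1 *sams-1* libraries below wild type, was not applied to these levels. The difference between the changes with age was -1.63 for *metr-1* (adjusted p = 0.0286), -1.55 for *mthf-1* (adjusted p = 0.0301) and -1.52 for *mel-32* (adjusted p = 0.0483), none past the threshold of 0.01.

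Phosphatidylcholine synthesis and propionate breakdown also held genes that fell. Of 12 tested genes for phosphatidylcholine, 3 fell and none rose, with a median of -0.41 that muscle scaling turned to 1.19. *pmt-2* (chromosome V, 4628580 to 4635263), which adds methyl groups from SAM to phosphoethanolamine derivatives, had the lowest p of the 3, with 729, 632 and 630.3 CPM at D1 and 110.3, 127 and 100.5 CPM at D7 (log2 change -2.56 with SE 0.19 and adjusted p = 6.8e-05). *pmt-1*, which carries out the first of these methylations, stood at 505, 502 and 404 CPM at D1 and 179, 183 and 206 CPM at D7 (log2 change -1.31 with SE 0.22 and adjusted p = 0.0029), and *cept-1*, a choline and ethanolamine phosphotransferase, at 77, 72.6 and 59.8 CPM at D1 and 34.2, 38.2 and 27.7 CPM at D7 (log2 change -1.07 and adjusted p = 0.00929). For all 3 the ages did not overlap; muscle scaling left *pmt-2* lower (-0.92) and turned *pmt-1* and *cept-1* to 0.30 and 0.57. In wild type *pmt-2* fell by 1.83 (adjusted p = 0.00012), *cept-1* gave -1.29 (adjusted p = 0.00676), and *pmt-1* gave -0.11 (adjusted p = 0.79). The difference between genotypes for *cept-1* was 0.22 (adjusted p = 0.755). The count that fell was 1 (without D1 replicate 3, D7 replicate 1, D7 replicate 3 and D7 replicate 5) to 2 (without D1 replicate 1 and D1 replicate 5). In the fit without D1 replicate 1, 2 phosphatidylcholine genes rose. *pmt-2* held its call with each *sams-1* library left out in turn. *pmt-1* and *cept-1* lost the call without at least 1 library, with an adjusted p of at most 0.0759 (*cept-1*, without D7 replicate 5). *cept-1* lost it whichever *sams-1* library was left out.

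Of 11 propionate genes, 5 fell and none rose (median -0.64, 0.95 with muscle scaling). They included enzymes of the cobalamin-independent route. *acdh-1*, its acyl-CoA dehydrogenase, stood at 2188, 2469 and 2256 CPM at D1 and 226, 647 and 445 CPM at D7 (log2 change -2.39 with SE 0.35 and adjusted p = 0.0015). *ech-6*, an enoyl-CoA hydratase, stood at 901, 899 and 753 CPM at D1 and 165, 237 and 187 CPM at D7 (log2 change -2.12 with SE 0.20 and adjusted p = 0.000221). *hphd-1*, the dehydrogenase of a later step, stood at 387, 298 and 379 CPM at D1 and 57, 88.4 and 75.5 CPM at D7 (log2 change -2.27 with SE 0.26 and adjusted p = 0.000479). Each fell more than 4-fold without overlap, and with muscle scaling they were -0.71, -0.47 and -0.61, no longer past the test. All 3 fell in wild type as well, by 4.66, 1.48 and 2.94. *nhr-114*, a nuclear hormone receptor, stood at 108, 99.2 and 159 CPM at D1 and 19.6, 31.1 and 36.2 CPM at D7 (log2 change -2.07 and adjusted p = 0.00124) and was 1 of 2 of 170 such receptors that passed. Both were lower, a share of 1.18% against 6.34% of all genes. The receptors had a median of 0.21, with 109 positive and 61 negative. In lipid synthesis, 4 of 22 tested genes fell and none rose (median -0.60, 0.96 with muscle scaling), such as the elongase *elo-2* (-1.48, 0.19 with muscle scaling) and *let-767*, a ketoacyl-CoA reductase (-1.18, 0.43 with muscle scaling). The lipid synthesis count that fell was 4 without D1 replicate 1, 0 without D1 replicate 3, 0 without D1 replicate 5, 0 without D7 replicate 1, 3 without D7 replicate 3 and 0 without D7 replicate 5. In the fit without D1 replicate 1, 1 lipid synthesis gene rose. *fat-7* stood at 400.4, 338 and 134 CPM at D1 and 116, 172 and 92.3 CPM at D7 and did not pass (log2 change -1.20 and adjusted p = 0.0417; 0.48 with muscle scaling). The count of propionate genes that fell was 2 (without D7 replicate 5) to 5 (without D7 replicate 3). *ech-6* and *hphd-1* held their calls with each *sams-1* library left out in turn. *acdh-1*, *nhr-114*, *elo-2* and *let-767* lost the call without at least 1 library, with an adjusted p of at most 0.0288 (*elo-2*, without D7 replicate 5).

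Nuclear genes for mitochondrial energy metabolism were lower at D7, by smaller factors. Of 44 respiratory chain and ATP synthase genes, 20 fell and none rose, with a median of -0.79, which muscle scaling turned to 0.81 beside 1.61 for all genes. Their sum was 12374, 13149.9 and 14379 CPM in D1 replicates 1, 3 and 5 and 7416, 7027 and 7632 CPM in D7 replicates 1, 3 and 5, without overlap. *gas-1*, a subunit of complex I, stood at 159, 163 and 182 CPM at D1 and 58.7, 44.9 and 68 CPM at D7 (log2 change -1.55 with SE 0.22 and adjusted p = 0.00145). *asb-2*, an ATP synthase subunit, stood at 402, 430.3 and 519.9 CPM at D1 and 171, 133 and 190.2 CPM at D7 (log2 change -1.45 with SE 0.24 and adjusted p = 0.00248). *cyc-2.2*, a cytochrome c gene, was lower at D1 and fell further, from 29.7, 44 and 35.2 CPM at D1 to 3.99, 2.81 and 1.53 CPM at D7 (log2 change -3.71 and adjusted p = 0.00952). Of 23 citric acid cycle genes, 7 fell (median -0.77, 0.82 with muscle scaling), and of 23 genes of glycolysis and gluconeogenesis, 6 (median -0.80, 0.81 with muscle scaling). *idh-2*, an isocitrate dehydrogenase, gave -1.63, *suca-1*, a succinyl-CoA ligase, -1.24, and *gpd-2*, a glyceraldehyde-3-phosphate dehydrogenase, -1.68; with muscle scaling these were -0.04, 0.36 and -0.11. Leaving out 1 library, glycolysis gave 4 genes lower without D1 replicate 1 and 0 without any other, and the citric acid cycle, 5 genes of which are also on the respiratory chain list, gave 4 without D1 replicate 1, 1 without D1 replicate 3, 3 without D1 replicate 5, 0 without D7 replicate 1, 1 without D7 replicate 3 and 0 without D7 replicate 5. In the fit without D1 replicate 1, 3 genes of the respiratory chain, 3 of glycolysis and 1 of the citric acid cycle rose. Scaled on muscle, *gas-1* and *asb-2* became 0.03 and 0.13. The respiratory chain count that fell was 18 without D1 replicate 1, 2 without D1 replicate 3, 4 without D1 replicate 5, 0 without D7 replicate 1, 6 without D7 replicate 3 and 1 without D7 replicate 5, and none fell without both D1 replicates 3 and 5. The ages of the wild type gave a respiratory chain median of -0.03 with 2 genes lower, and no gene of the list passed the test of the difference between genotypes. With 1 *sams-1* library left out in turn, *gas-1*, *asb-2*, *cyc-2.2*, *idh-2*, *suca-1* and *gpd-2* lost the call without at least 1 library, with an adjusted p of at most 0.0608 (*cyc-2.2*, without D7 replicate 5).

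Other mitochondrial genes gave fewer calls. Of 66 mitochondrial ribosome genes 3 fell and none rose, 4.55% against 6.34% of all genes, with a median of -0.34 that muscle scaling turned to 1.31. They were *mrps-14* (75.8, 94.8 and 82.1 CPM at D1 and 42.5, 54 and 38.4 CPM at D7; log2 change -0.91 and adjusted p = 0.00571), *mrpl-15* (-0.78) and *mrps-26* (-0.82), which muscle scaling turned to 0.72, 0.83 and 0.81. *mrpl-18* stood at 43.4, 26.4 and 23.4 CPM at D1 and 36.7, 51.4 and 38.2 CPM at D7 (log2 change 0.43 and adjusted p = 0.234), and the groups overlapped. None of 12 protein genes of the mitochondrial genome passed (median -0.61, 1.06 with muscle scaling). *hsp-60*, the mitochondrial chaperonin, stood at 369, 381 and 357 CPM at D1 and 149, 160.1 and 163 CPM at D7 (log2 change -1.23 with SE 0.20 and adjusted p = 0.00219), and *spg-7*, a quality-control protease, at 141, 146 and 132 CPM at D1 and 68, 92 and 76.6 CPM at D7 (log2 change -0.82 and adjusted p = 0.00708). These were the 2 of 10 mitochondrial chaperone and protease genes that fell (median -0.38, 1.26 with muscle scaling), and muscle scaling turned them to 0.39 and 0.81. *hsp-6*, the mitochondrial Hsp70 (680.3, 655 and 779 CPM at D1 and 413, 355 and 487 CPM at D7; log2 change -0.75 and adjusted p = 0.0364), *tomm-20*, an import receptor (66.4, 51.2 and 56.6 CPM at D1 and 40.1, 46 and 44.8 CPM at D7; log2 change -0.41 and adjusted p = 0.129), and *Y111B2A.2* (45.4, 17.7 and 20.8 CPM at D1 and 49, 47.7 and 57.3 CPM at D7; log2 change 0.87 and adjusted p = 0.0404) did not pass, although the ages of each did not overlap. Muscle scaling turned *hsp-6* and *tomm-20* to 0.84 and 1.22. The count of mitochondrial ribosome genes that fell was 0 (without D1 replicate 3, D1 replicate 5, D7 replicate 1 and D7 replicate 5) to 2 (without D1 replicate 1). In the fit without D1 replicate 1, 1 such gene rose. With 1 *sams-1* library left out in turn, *mrps-14*, *mrpl-15*, *mrps-26*, *hsp-60* and *spg-7* lost the call without at least 1 library, with an adjusted p of at most 0.0698 (*mrps-26*, without D7 replicate 1). *mrpl-15* and *mrps-26* lost it whichever *sams-1* library was left out, and *spg-7* held it only without D7 replicate 3.

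**Figure D3:**
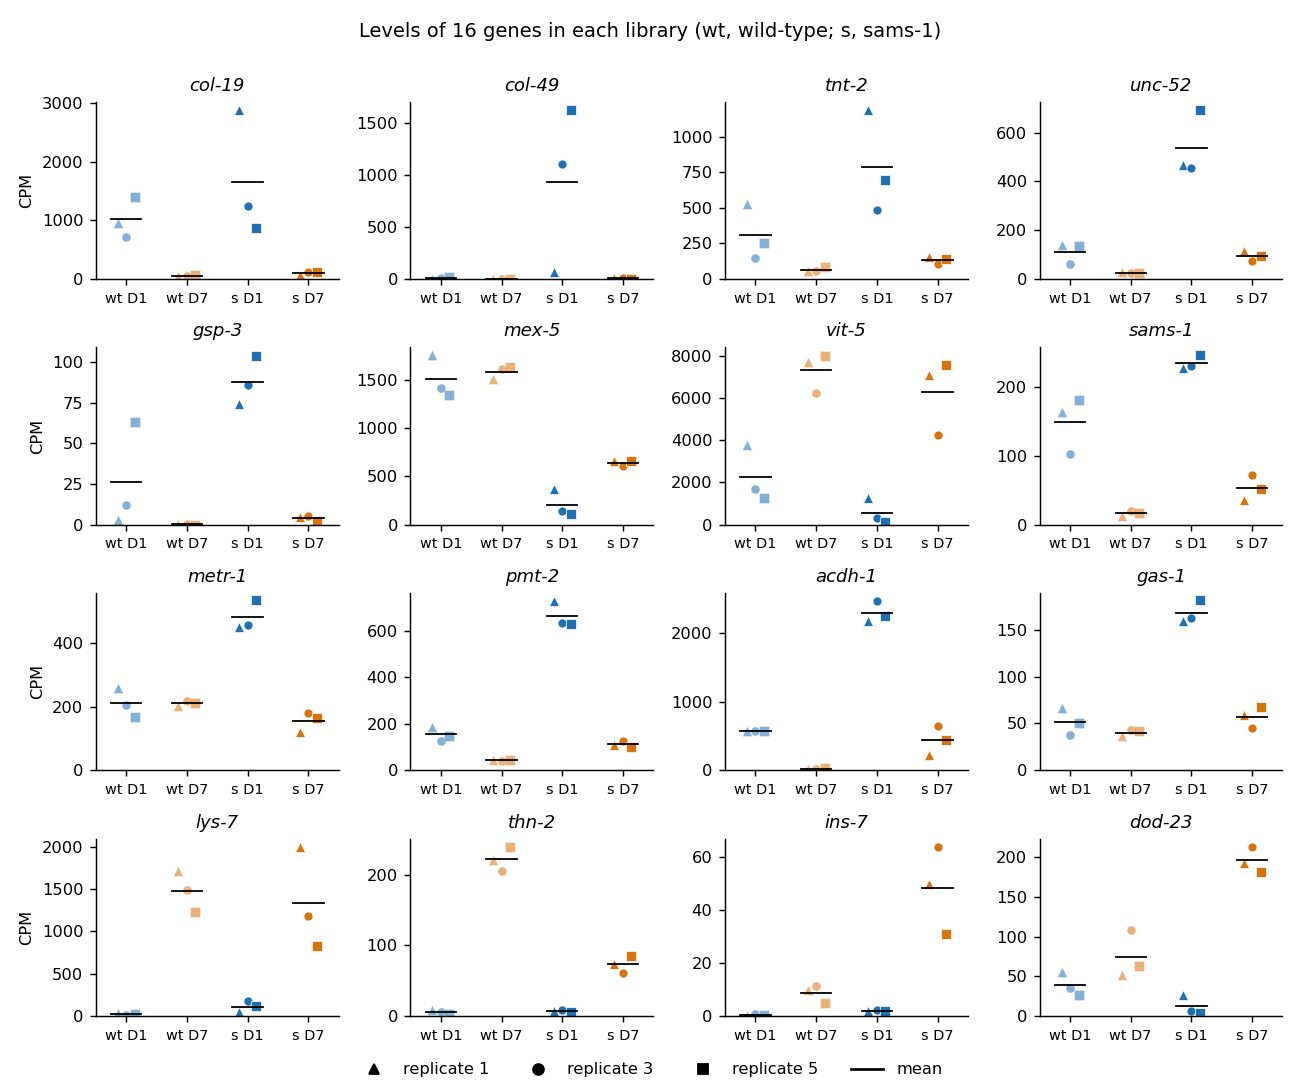
Level in CPM (linear axis from 0) of 16 named genes in each wild-type (pale) and *sams-1* (full colour) library at D1 (blue) and D7 (orange), with a marker shape for each replicate and a bar at the mean of 3. The *sams-1* D1 and D7 libraries do not overlap for these 16 genes, as for 98.5% of genes past the test, and *metr-1* fell from 452 to 537 CPM to below 180 CPM in *sams-1* while wild type stood at 169 to 260 CPM at D1 and 201 to 218 CPM at D7. The genotypes are shown without muscle scaling.

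Some genes for secreted antimicrobial proteins rose. Of 34 tested lysozyme and saposin-like genes, 9 rose (26.5% against 3.29% of all genes), none fell and 25 did not pass. The median was 0.90, which is the same with the 1 member at 0 in all D1 libraries set to its lower bound. Their sum was 2345, 4371 and 2799.6 CPM in D1 replicates 1, 3 and 5 and 7261, 8871 and 6355 CPM in D7 replicates 1, 3 and 5, without overlap. *lys-7* (chromosome V, 3481432 to 3482600), a lysozyme, stood at 46.5, 173 and 117 CPM at D1 and 1994, 1181 and 825 CPM at D7 (log2 change 3.57 with SE 0.50 and adjusted p = 0.00124). *lys-3*, another lysozyme, stood at 0.565, 1.29 and 2.03 CPM at D1 and 16, 44.5 and 17.4 CPM at D7 (log2 change 4.32 with SE 0.60 and adjusted p = 0.00122). *spp-27*, of the saposin-like family, stood at 0, 3.33 and 0 CPM at D1 and 25.3, 84.3 and 33.3 CPM at D7 (log2 change 5.48 and adjusted p = 0.00544). Of 15 tested epidermal antimicrobial peptide genes, by contrast, 1 rose and 1 fell, with a median of -0.20 (1.29 with muscle scaling), and neither call held without any single library other than D1 replicate 1. Both tested thaumatin genes rose, and *thn-2* stood at 6.93, 8.13 and 6.43 CPM at D1 and 74.1, 60.9 and 84.4 CPM at D7 (log2 change 3.35 with SE 0.31 and adjusted p = 0.000221). *dod-23*, of the CUB-like family, stood at 25.9, 6.47 and 3.89 CPM at D1 and 193, 213 and 182 CPM at D7 (log2 change 4.00 with SE 0.59 and adjusted p = 0.00165) and was 1 of 2 of 14 such genes that rose (14.3% against 3.29% of all genes). Of 96 tested C-type lectins 8 rose (8.33% against 3.29% of all genes) and 7 fell (7.29% against 6.34%). None fell without any single library other than D1 replicate 1. *clec-266* was among those that rose, from 1.27, 0.185 and 0.339 CPM at D1 to 40.6, 27.7 and 37.8 CPM at D7 (log2 change 5.75 and adjusted p = 0.000348). The number of lysozyme and saposin-like genes that rose was 11 without D1 replicate 1, 8 without D1 replicate 3, 7 without D1 replicate 5, 6 without D7 replicate 1, 3 without D7 replicate 3 and 6 without D7 replicate 5, and 7 rose without both D1 replicates 3 and 5. *lys-7*, *lys-3*, *thn-2*, *dod-23* and *clec-266* held their calls with each *sams-1* library left out in turn. *spp-27* lost the call without at least 1 library, with an adjusted p of at most 0.0267 (without D7 replicate 3).

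Several protease, peptide and stress genes rose too. Of 22 aspartyl and cathepsin proteases, 3 rose (13.6% against 3.29% of all genes) and none fell. *asp-17*, an aspartyl protease, stood at 10.6, 17.7 and 15.9 CPM at D1 and 101, 87.7 and 148 CPM at D7 (log2 change 2.93 with SE 0.47 and adjusted p = 0.00222), and *cpr-3*, a cathepsin B relative, at 33.5, 63.9 and 61.8 CPM at D1 and 319, 283 and 398 CPM at D7 (log2 change 2.65 with SE 0.32 and adjusted p = 0.000626). *ins-7*, an insulin-like peptide that activates the DAF-2 receptor, stood at 1.84, 2.4 and 1.86 CPM at D1 and 50.1, 63.9 and 31 CPM at D7 (log2 change 4.56 with SE 0.54 and adjusted p = 0.000531) and was 1 of 2 of 20 tested insulin-like peptides that rose (10% against 3.29% of all genes). The peptide gene *nlp-40*, which the intestine uses to time defecation, rose by 0.85 (207, 214 and 182 CPM at D1 and 348, 364 and 376 CPM at D7). Of 61 tested neuropeptide-like genes 2 rose, 3.28% against 3.29% of all genes, and 1 fell. *mtl-1*, a metallothionein, stood at 3.68, 22.5 and 8.64 CPM at D1 and 83.6, 80.4 and 82.6 CPM at D7 (log2 change 2.83 and adjusted p = 0.00761). Of 8 tested metallothionein and cadmium-responsive genes 1 rose, 12.5% against 3.29% of all genes, and none fell. *ttr-45*, of the transthyretin-related family, stood at 85.2, 36.8 and 32.5 CPM at D1 and 329, 410.5 and 501 CPM at D7 (log2 change 3.00 and adjusted p = 0.0015). Of 48 tested genes of that family 3 rose (6.25% against 3.29% of all genes) and 2 fell (4.17% against 6.34%). *hsf-1*, the heat shock transcription factor gene, rose by 1.02 (58, 42.1 and 61.1 CPM at D1 and 106, 104 and 117 CPM at D7), and of the other genes on its list of 20 tested small heat shock and chaperone genes 1 fell and none rose. That list had 5% higher and 5% lower, against 3.29% and 6.34% of all genes. The D1 and D7 libraries of the genes named in this paragraph did not overlap, as for 98.5% of genes past the test. *asp-17*, *cpr-3*, *ins-7* and *ttr-45* held their calls with each *sams-1* library left out in turn. *nlp-40*, *mtl-1* and *hsf-1* lost the call without at least 1 library, with an adjusted p of at most 0.0249 (*mtl-1*, without D7 replicate 3).

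Of 29 autophagy genes 3 rose, 10.3% against 3.29% of all genes, and 26 did not pass. The log2 fold changes had a median of 0.53, with 26 positive. *lgg-2*, an Atg8 homologue of the autophagosome membrane, stood at a mean of 124 ± 12 CPM at D1 and 236 ± 40.8 CPM at D7 (SD, n = 3 libraries; log2 change 0.92 with SE 0.18 and adjusted p = 0.00545), without overlap. *lgg-1*, the other Atg8 homologue, stood at 312, 361 and 322 CPM at D1 and 553, 623 and 457 CPM at D7 and did not pass (log2 change 0.71 and adjusted p = 0.0115), though its ages did not overlap. *dct-1*, a receptor for removal of mitochondria, rose by 1.28, and *atg-18*, which binds the forming membrane, by 0.83. The count that rose was 2 (without D1 replicate 3, D7 replicate 3 and D7 replicate 5) to 16 (without D1 replicate 1). *lgg-2* held its call with each *sams-1* library left out in turn. *dct-1* and *atg-18* lost the call without at least 1 library, with an adjusted p of at most 0.0185 (*dct-1*, without D7 replicate 3).

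Other genes had large rises among those with a symbol of letters, a hyphen and a number. *comt-4*, of the catechol-O-methyltransferase family, stood at 0.141, 0.924 and 0.508 CPM at D1 and 19, 27 and 27.5 CPM at D7 (log2 change 5.55 and adjusted p = 0.0018), and *ech-9*, an enoyl-CoA hydratase relative, at 1.13, 2.03 and 0.508 CPM at D1 and 38, 18.6 and 22.2 CPM at D7 (log2 change 4.41 and adjusted p = 0.00198). *bigr-1* stood at 2.83, 20.3 and 10.3 CPM at D1 and 160.3, 279 and 161 CPM at D7 (log2 change 4.18 and adjusted p = 0.00104), with D1 replicate 1 lowest. Among 61 tested cytochrome P450 genes 5 rose (8.2% against 3.29% of all genes) and 3 fell (4.92% against 6.34%). Without any single library other than D1 replicate 1 these counts were 1 to 3 and 0. *cyp-36A1* stood at 10.6, 9.79 and 10.8 CPM at D1 and 45, 42.3 and 37.2 CPM at D7 (log2 change 1.99 and adjusted p = 0.000594). *comt-4*, *ech-9*, *bigr-1* and *cyp-36A1* held their call with each *sams-1* library left out. No member passed among 20 intestine markers, 30 tested neuron genes, 24 tested cilia genes, 79 tested cytosolic ribosomal protein genes, 33 proteasome genes, 31 aminoacyl-tRNA synthetases, 22 tested histone genes, 11 insulin receptor pathway genes or 18 AMPK and TOR genes. At an unadjusted p under 0.05 the counts higher and lower were 1 and 6 for intestine, 0 and 0 for neurons, 0 and 47 for ribosomal proteins and 5 and 0 for the insulin receptor pathway, and DESeq2 put 0 and 2, 0 and 0, 0 and 7, and 4 and 0 past the test. With muscle scaling the medians turned from -0.55 to 1.02 for ribosomal proteins, -0.16 to 1.40 for intestine, -0.26 to 1.34 for neurons, -0.17 to 1.47 for aminoacyl-tRNA synthetases and -0.03 to 1.54 for histones.

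Wild-type animals gave the reference for what age does without the *sams-1* perturbation. Their D1 libraries were uneven as well, with a biological coefficient of variation of 0.442 at D1 and 0.088 at D7. On the first principal component, wild-type D1 replicate 5 stood at -23.6, apart from replicates 1 and 3 at -95.0 and -83.0. In wild type 417 genes (2.94%) rose and 417 (2.94%) fell at an adjusted p under 0.01. Of the genes called with the 2-fold threshold, 142 were higher in both genotypes, 36.1% of the *sams-1* and 34.9% of the wild-type higher calls, and 201 were lower in both, 23.8% and 48.4%. Across the 14193 genes the log2 fold changes of both genotypes had a Pearson correlation of 0.66, as a description over genes that are not independent. Of the 845 genes lower in *sams-1*, 743 had a negative value in wild type, and of the 393 higher, 358 a positive one. The *col* collagens fell there too, from 32352, 18595 and 38054 CPM at D1 to 1932, 2666 and 2626 CPM at D7 (32 of 120 fell, median -2.66). So did 24 of 28 major sperm protein genes (median -6.67). Their wild-type sums were uneven at D1, at 89.5, 372 and 2052 CPM in replicates 1, 3 and 5, against 2.23, 18 and 8.21 CPM at D7. Body wall muscle genes summed to 8447, 4602 and 7228 CPM at D1 and 2633, 2365 and 3185 CPM at D7 in wild type (8 of 35 fell, median -1.03). Of 34 lysozyme and saposin-like genes 8 rose and 3 fell there. Both thaumatin genes rose, and of 22 aspartyl and cathepsin proteases 7 rose and 1 fell. Molting genes (median 0.79) and oocyte genes (0.29) had no member past the test in wild type. No member of any list passed the test of the difference between genotypes at an adjusted p under 0.01.

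**Figure D4:**
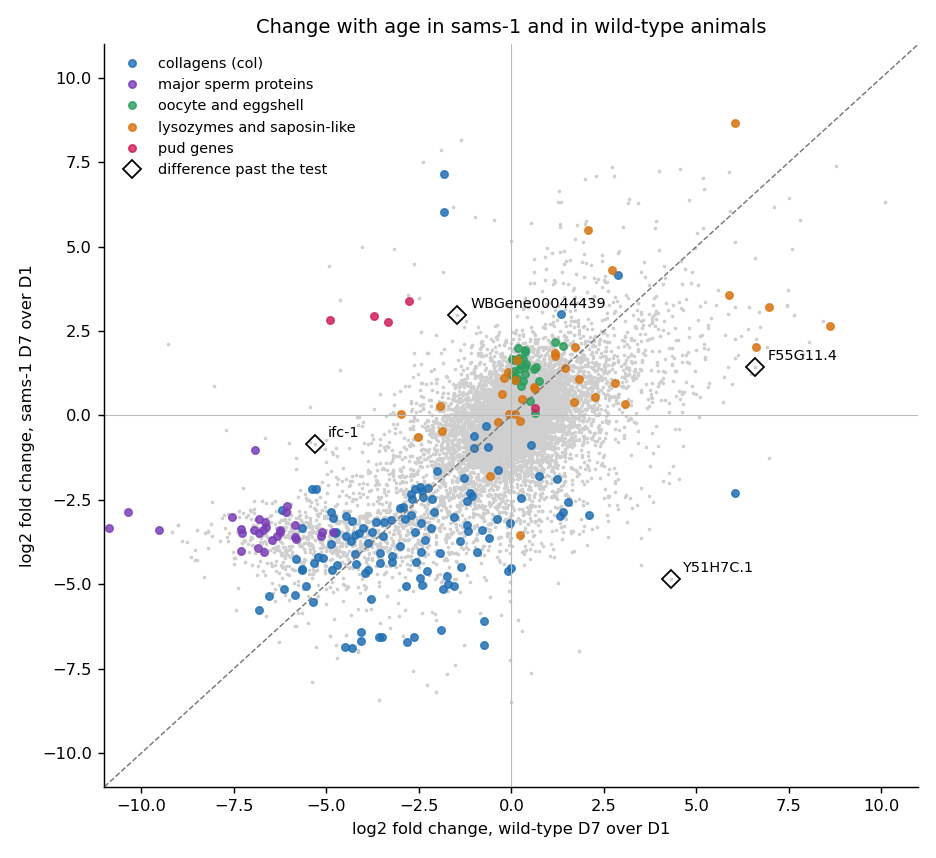
Log2 fold change between D7 and D1 in wild-type (horizontal axis) and *sams-1* animals (vertical axis) for each gene tested, with 5 gene lists in colour, open diamonds on the 4 genes whose change with age differed between genotypes, and a dashed line of equal change. Of the *pud* genes, 4 lie at the upper left, with positive values in *sams-1* and negative values in wild type that did not pass the test of the difference, and *Y51H7C.1*, lower with age in *sams-1* and higher in wild type, at the lower right.

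The change with age differed between genotypes for 4 genes, 2 more positive in *sams-1* (0.0141% of genes) and 2 more negative (0.0141%). At an unadjusted p under 0.05 there were 978 and 1722, and DESeq2 called 248 and 190. *Y51H7C.1* (chromosome II, 1467727 to 1469630) stood at 119.9, 100.3 and 230.1 CPM at D1 and 2.47, 4.1 and 8.87 CPM at D7 in *sams-1* and at 3.17, 0.973 and 2.79 CPM at D1 and 43.3, 42.7 and 51 CPM at D7 in wild type (difference -9.13, adjusted p = 0.000285). It thus fell with age in *sams-1* and rose in wild type. *WBGene00044439* (chromosome II, 1459138 to 1461307), a near neighbour on chromosome II that the annotation calls a pseudogene and gives no symbol, was higher with age in *sams-1* and lower in wild type, the latter not past the test, with 4.38, 3.33 and 1.35 CPM at D1 and 20.7, 17.9 and 33.6 CPM at D7 in *sams-1* and 115, 145 and 86.8 CPM at D1 and 43.3, 32.5 and 50.4 CPM at D7 in wild type (difference 4.43, adjusted p = 0.00669). *F55G11.4* (chromosome IV, 12973624 to 12975603) stood at 4.1, 10.2 and 7.28 CPM at D1 and 20.1, 14.9 and 22.9 CPM at D7 in *sams-1* against 2.41, 1.13 and 2.59 CPM at D1 and 235, 237 and 123 CPM at D7 in wild type (difference -5.15, adjusted p = 0.00508). *ifc-1* (chromosome V, 2881393 to 2883753), which encodes an intermediate filament protein of the intestine, stood at 26.3, 41.4 and 53.2 CPM at D1 and 20.1, 16.2 and 31 CPM at D7 in *sams-1*, with overlapping ages, against 17, 17.3 and 20 CPM at D1 and 0.478, 0.334 and 0.492 CPM at D7 in wild type (difference 4.47, adjusted p = 0.00669). The number of genes more positive and more negative was 1533 and 309 without *sams-1* D1 replicate 1, and at most 4 and 1 without any other *sams-1* library.

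The *pud* genes, named for being raised in long-lived *daf-2* mutants, did not pass that test. *pud-1.2* stood at 5.37, 20.5 and 5.76 CPM at D1 and 84.5, 89 and 38.5 CPM at D7 in *sams-1* (log2 change 2.76 and adjusted p = 0.00693) and at 617, 668 and 199.9 CPM at D1 and 37.9, 44.9 and 63.5 CPM at D7 in wild type, a difference of 6.10 (adjusted p = 0.0121). *pud-4* rose in *sams-1* too (0.565, 1.85 and 0.169 CPM at D1 and 7.41, 14.5 and 4.89 CPM at D7; log2 change 3.38 and adjusted p = 0.0082), with a difference of 6.14 (adjusted p = 0.0207). With 1 *sams-1* library left out in turn, *pud-1.2* and *pud-4* lost the call without at least 1 library, with an adjusted p of at most 0.0332 (*pud-4*, without D7 replicate 3).

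Exons of 271 of the 1238 called genes overlap those of another protein-coding gene, and the sources do not state whether strand was used in counting. Among the genes described, this makes the values of *col-74*, *bli-1*, *unc-52*, *mlc-1*, *pie-1*, *vit-2*, *mthf-1*, *sams-3*, *gas-1*, *idh-2*, *gpd-2*, *clec-266*, *bigr-1*, *cyp-36A1* and *dct-1* less certain.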

How the data were processed

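Per the submitters' processing notes, the authors used Trimmomatic 0.39 for trimming, STAR for alignment and RSEM 1.3.3 for gene levels. The annotation was WormBase ws245, per the study's methods, while no genome build is given in the sources used here. The deposited expected counts are RSEM's estimated reads per gene, which need not be whole. The deposited TPM values, from the authors' RSEM output, were used only in an alternative, and the deposited FPKM values of the authors were not used. Gene places came from WBcel235 (Ensembl 115).

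Expected counts were rounded and tested with edgeR 4.0.16 in R 4.3.3 by the quasi-likelihood F test with Benjamini-Hochberg adjustment over 14193 of 46925 genes that passed filterByExpr. All 12 libraries entered the fit, with TMM factors and 8 residual degrees of freedom. The contrasts were D7 against D1 in *sams-1*, the same in wild type, and their difference. Called genes had an adjusted p under 0.01 and a change of at least 2-fold. List members were counted at an adjusted p under 0.01 alone, as for "rose" and "fell" in the text. CPM values are counts divided by TMM-scaled library size, and thus not per gene length. The study calls the replicates independent biological ones, and the labels give no more on how their cultures were separated. Genes were named by rule: the 10 largest changes in each direction with a mean of at least 10 CPM over the 6 libraries and no overlap between ages, up to 3 members of each list that passed, with a mean of at least 5 CPM, the largest differences between genotypes, and genes the study names. The largest changes and differences were ranked only among genes with a symbol of letters, a hyphen and a number. Genes with only a sequence name were left out of these rankings. *col-19*, *col-119*, *col-140*, *mthf-1*, *ahcy-1*, *mel-32*, *mtrr-1*, *pud-4*, *col-165* and the genes that differed between genotypes outside the rule were chosen after their values were seen. Gene lists and members were chosen with earlier results of these data known. Alternatives used other scalings and filters, DESeq2 1.42.0, limma 3.58.1 on log2(TPM + 1), a test against a 2-fold change, the 6 libraries alone, a replicate term and leaving out libraries.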

Additional observations from a re-analysis of the deposited data

Results flagged for a closer look

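For 4 genes the change with age differed between *sams-1* and wild type in edgeR's quasi-likelihood test of the difference, at an adjusted p under 0.01. The log2 difference was -9.13 for *Y51H7C.1*, and it passed in all 21 settings tried, with values from -9.46 to -8.02. It was -5.15 for *F55G11.4*, 4.43 for *WBGene00044439* and 4.47 for *ifc-1*, each of which passed in 12 of 21 settings, with the highest adjusted p at 0.0253, 0.0365 and 0.0365. *Y51H7C.1* and *WBGene00044439*, annotated as a pseudogene, lie near each other on chromosome II.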

How the results depend on the processing

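Of 98 genes followed through up to 17 settings, 73 kept their direction in each and 16 also kept their side of the threshold, and of 1665 values 377 lost a call, 25 gained one and 28 reversed. The counts called higher and lower with age in *sams-1*, 393 and 845, became 624 and 496 with library totals, 8143 and 229 with muscle scaling, 919 and 1560 with DESeq2, 1175 and 1092 with limma on TPM, 69 and 72 in the test against 2-fold, 229 and 1094 with the 6 libraries alone and 929 and 2217 at an adjusted p under 0.05. Leaving out 1 *sams-1* library gave 150 to 2359 higher and 66 to 1278 lower. Without both *sams-1* D1 replicates 3 and 5, chosen after seeing the data, they were 283 and 96. Genes more positive and more negative in *sams-1* than in wild type, 2 and 2, became 7 and 2 with RLE size factors and with library totals, 9 and 6 with muscle scaling, 18 and 13 with no filter on low counts, 248 and 190 with DESeq2, 16 and 6 with limma, 0 and 1 in the test against 2-fold and 51 and 107 at an adjusted p under 0.05. Leaving out 1 library gave 0 to 1533 and 1 to 309. The cause of these shifts was not tested.

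With muscle scaling the log2 fold change turned positive for *ahcy-1* (0.23), *asb-2* (0.13), *cept-1* (0.57), *elo-2* (0.19), *fat-7* (0.48), *gas-1* (0.03), *hsp-6* (0.84), *hsp-60* (0.39), *ifc-1* (0.71), *let-767* (0.43), *mel-32* (0.26), *metr-1* (0.00), *mrpl-15* (0.83), *mrps-14* (0.72), *mrps-26* (0.81), *mthf-1* (0.10), *mtrr-1* (0.55), *pmt-1* (0.30), *sams-3* (1.12), *sams-4* (1.19), *spg-7* (0.81), *suca-1* (0.36) and *tomm-20* (1.22), where the median of all genes is 1.61. Without both D1 replicates 3 and 5 it turned for *ifc-1* (0.02), *mlt-8* (0.44), *qua-1* (0.83) and *sams-4* (0.19), and leaving out 1 library gave -0.49 to 0.04 for *sams-4*, positive without D1 replicate 5.

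Replicate numbers were not used as pairs in the main fit. Across genes, deviations of same-numbered *sams-1* D1 and D7 libraries from their group means had correlations of -0.323, -0.0221 and 0.0618. With 3 libraries per group, and D1 replicate 1 apart from the others, these values cannot decide whether same-numbered libraries shared a culture or batch. A fit with the replicate block called 276 higher and 488 lower, and 1 and 1 genes in the test of the difference between genotypes. Depth limits low genes: totals of 3939023 to 6715897 counts leave genes with a few counts, such as *col-165*, with wide intervals.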
